A study of Mus musculus with 6 samples.

Results

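The mitochondrial biogenesis regulators are 10 nuclear genes that set how much respiratory machinery a cell makes: the coactivators Ppargc1a, Ppargc1b and Pprc1, the transcription factors Nrf1, Gabpa and Esrra, and the mitochondrial transcription apparatus Tfam, Tfb1m, Tfb2m and Polrmt. They were taken by symbol from the 22310 genes of the table, not by a cut on their values, and all 10 were found. The list itself was chosen with earlier results of these data known. They were compared between metastasis-initiating cells (MICs) and non-MICs, sorted from PyMT mammary tumors as Lin-CD24+ cells with CD90 (CD90+) or lacking it (CD90-), with 3 RNA-seq libraries of each population. The tumors came from MMTV-PyMT mice on the FVB/N background, 12 to 18 weeks of age, in which the MMTV promoter drives the polyoma middle T oncogene in mammary epithelium. The labels give the genotype of both populations as WT beside the name MMTV-PyMT, and no further allele or agent. Both were plated in vitro with insulin and EGF before being sorted a day later, and Lin- excludes cells with blood, endothelial and erythroid surface markers. Libraries carry the numbers 1 to 3 in both populations, and libraries with the same number are called a pair.

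In the textbook scheme, coactivators of the PGC-1 family bind transcription factors rather than DNA. The nuclear respiratory factors Nrf1 and Gabpa and the estrogen-related receptor Esrra carry them to promoters of respiratory chain genes and of the mitochondrial transcription apparatus. Polrmt, the mitochondrial RNA polymerase, then starts transcription of mitochondrial DNA with Tfam and Tfb2m, so these nuclear genes stand upstream of both genomes that encode the respiratory chain. The comparison asks whether the mRNAs of this program differ between MICs and non-MICs, in a study of mitochondrial activity in MICs.

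Members of the program are themselves described as targets of NRF1 and GABP, and 3 promoter stretches are shown because they hold the short cores these factors are known to bind. They come from RefSeq on GRCm38.p6, are printed 5′ to 3′ along the gene, and have the motif in capitals. The NRF1 core searched was GCGCATGC, the GABP (ETS) core CCGGAAG and the element of estrogen-related receptors TCAAGGTCA, on both strands of the 250 bases before and 50 after each start, and the 3 do not overlap each other in these stretches. The Tfam stretch lies at chr10:71238055-71238121, the Tfb2m stretch at chr1:179546247-179546293 and the Polrmt stretch at chr10:79746588-79746744, all on the minus strand.
Tfam: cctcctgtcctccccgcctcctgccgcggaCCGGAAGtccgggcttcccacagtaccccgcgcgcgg
Tfb2m: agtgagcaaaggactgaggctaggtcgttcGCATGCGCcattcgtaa
Polrmt: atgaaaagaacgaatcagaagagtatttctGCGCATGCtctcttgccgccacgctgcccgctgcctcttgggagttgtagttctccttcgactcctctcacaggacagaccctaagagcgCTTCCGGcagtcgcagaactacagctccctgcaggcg

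The Tfam match to the GABP core begins 47 bases before the RefSeq start, and Tfb2m has the reverse complement of the NRF1 core from 13 bases after it. Polrmt holds both, an NRF1 core 133 bases and a reversed GABP core 43 bases before its start. Promoters were present for 9 of the 10 regulators, 10 promoters in all, and that of Ppargc1b was not among them. The NRF1 core was found for Esrra, Polrmt and Tfb2m, against 2.71% of 32851 promoters. The GABP core was found for Gabpa, Polrmt and Tfam, against 8.86%. The estrogen-related receptor element was in none of the members' windows and in 0.423% of all promoters. A match describes these letters and is not a measured binding site.

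The values are read counts scaled by the authors to the same total in each library, about 3.5e+07, and 1 read is worth between 0.676 and 1.11 units. Recovered whole reads summed to between 31467281 and 51759769 per library, with pair 3 the deepest. The test was limma, fitted to log2(value + 1), which shrinks changes at low values, with Benjamini-Hochberg adjustment across the 22310 genes. A second fit held the pair as a block. Thy1, which encodes the CD90 of the sort, had 1399, 271 and 1117 reads in MICs 1 to 3 and 16, 20 and 18 in non-MICs. Of 7 basal markers, all detected, 4 were higher in MICs in every pair, and their summed value ranged from 23691 to 404281 in MICs and from 23967 to 140300 in non-MICs. Of 8 fibroblast markers, all detected, 4 were higher in MICs in every pair, with sums of 603 to 1974 against 556 to 944. Of 4 pericyte markers, all detected, 2 were higher in every pair, with sums of 385 to 600 against 344 to 982. Over all genes, 12.5% were higher in MICs in every pair. Of 7 immune markers, 5 were detected and 0 moved in 1 direction in every pair, with sums of 204 to 1979 in MICs against 224 to 1197 in non-MICs, both highest in pair 2. Of the 5, the myeloid gene Lyz2 had up to 1470 reads in a library, Cd68 up to 307 and Csf1r up to 151, while Ptprc had at most 14 and Adgre1 at most 8. The part of these cell types in the regulators' values was not tested.

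No regulator passed the test between MICs and non-MICs. In sorted bulk populations, fewer cells of a type and less RNA per cell cannot be told apart. The labels do not say whether the libraries of a population came from separate mice. The paper counts the 3 as independent experiments or tumors. The p-values measure the spread between these libraries, and whether that is a spread between mice is not stated. Without the block, 0 of the 10 had an adjusted limma p-value under 0.05, against 0.0% of all genes, and 0 of 10 had an unadjusted p-value under 0.05, against 1.44%. With the block the count remained 0 of 10, against 0.13% of all genes, and in the edgeR quasi-likelihood test with the block on recovered reads it was again 0 of 10, against 1.41%. Before adjustment, the fit with the block placed 1 of 10 under 0.05 in the lower direction, Pprc1, against 5.97% of all genes, and 0 of 10 in the higher direction, against 5.24%. No regulator was higher in MICs in all 3 pairs, which 12.5% of all genes were, and 2 were lower in all 3, Pprc1 and Nrf1, against 18.8%. TMM rescaling left Pprc1 alone in the lower direction and placed Tfb1m in the higher, and quantile normalization added Esrra and Tfb2m to it. The median log2 difference of the 10 was -0.03, with 5 above and 5 below 0, beside a median of -0.04 over all genes.

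**Figure D1:**
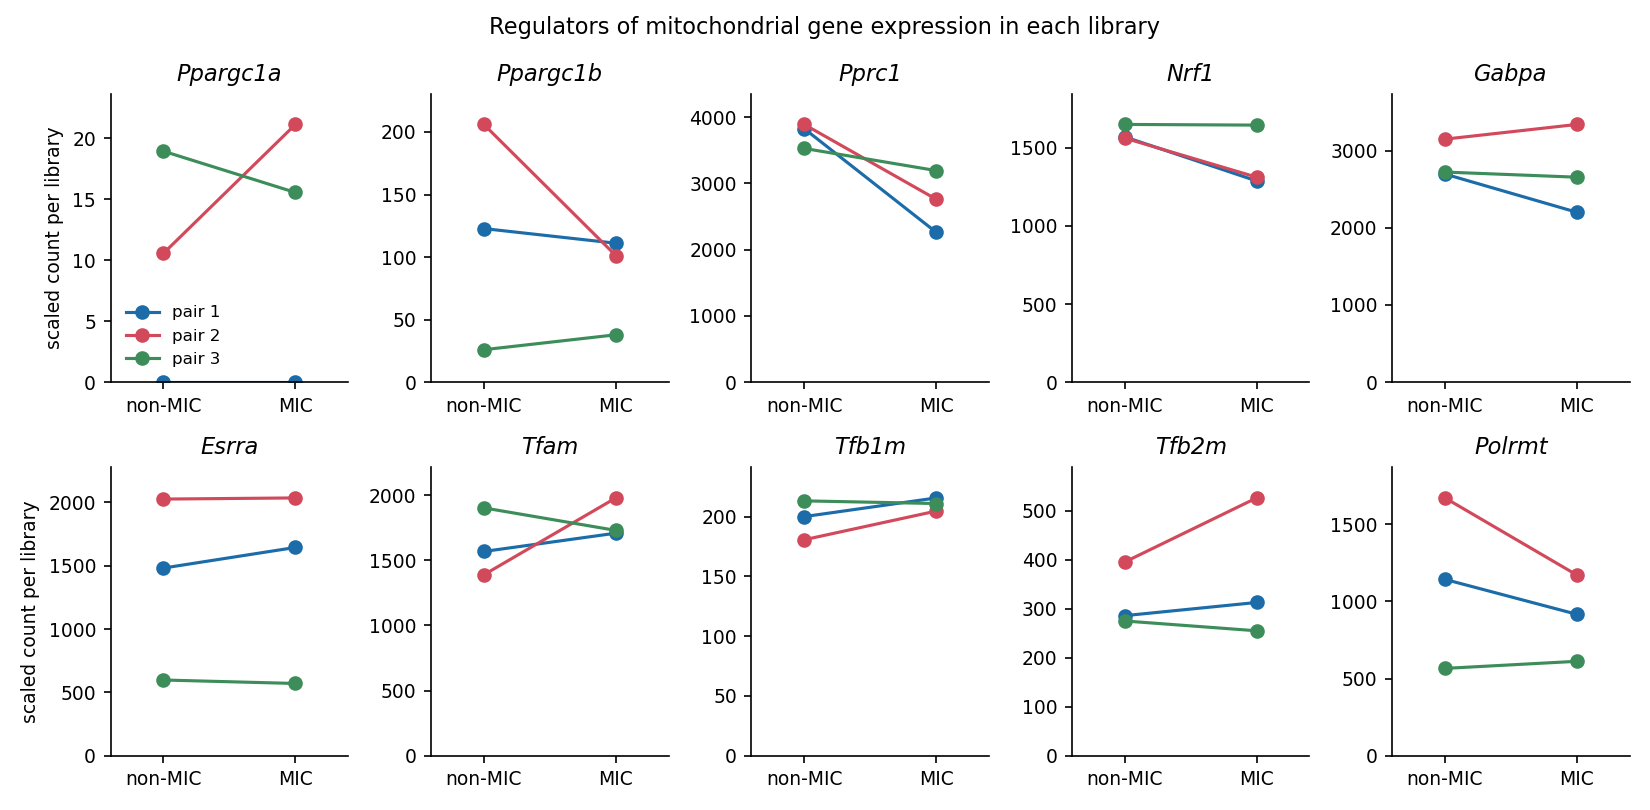
Scaled count of each regulator (linear vertical axis from 0) in every library, with non-MICs on the left, MICs on the right and a line joining the libraries of a pair. Pprc1 is the 1 gene whose MIC libraries, at 2263 to 3194, all lie below its non-MIC libraries, at 3529 to 3891.

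Per length and averaged over all 6 libraries, the coactivators included both the most and the least abundant of the 10 regulators. Pprc1 (ENSMUSG00000055491, chr19:46044886-46072915, plus strand, GRCm38), a growth-inducible member of the PGC-1 family, had scaled counts of 2263, 2762 and 3194 in MICs 1 to 3. Its counts were 3827, 3891 and 3529 in non-MICs 1 to 3. Every MIC library lay below every non-MIC library, which holds for 3.55% of all genes, and each pair differed the same way. The MIC value differed from the non-MIC value by -40.9% in pair 1, -29.0% in pair 2 and -9.49% in pair 3. Even in pair 3 the ratio of MIC to non-MIC reads, 0.905, had an exact 95% interval below 1, of 0.870 to 0.942, which covers counting error only. The log2 difference was -0.47 ± 0.20 (SE, n = 3 per group), with an adjusted p of 1.00 in limma (unadjusted 0.051). With the block its SE was 0.17 and its adjusted limma p 0.418 (unadjusted 0.018), and edgeR with the block gave an adjusted p of 0.286. The lower level of Pprc1 in 3 of 3 pairs did not pass the correction over all genes.

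Ppargc1a, the coactivator best known as the driver of mitochondrial biogenesis in muscle and brown fat, was close to the limit of detection. It had 0, 19 and 23 reads in MICs 1 to 3 and 0, 10 and 27 reads in non-MICs 1 to 3. Both libraries of pair 1 were at 0, and the populations overlapped in the other pairs. Zero reads allow up to 3, or 0.0924 RPM in MIC 1 and 0.0907 RPM in non-MIC 1, where RPM is reads scaled to library size. In pair 2 the read ratio of MICs to non-MICs was 2.00 (exact 95% interval 0.885 to 4.82) and in pair 3 it was 0.821 (0.450 to 1.49). Both intervals include 1, so a difference was not detectable at this depth. Of tissues rich in Ppargc1a, muscle left at most 3 reads of its creatine kinase Ckm in any library, although the actin Acta1 reached 15969 reads in MIC 1. Of 4 muscle markers, 3 were detected, with summed values of 17236, 1334 and 2349 in MICs 1 to 3 against 6551, 516 and 623 in non-MICs. Fat left at most 8 reads of any adipocyte marker.

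Ppargc1b, which shares many targets with Ppargc1a, had scaled counts of 111, 101 and 37.9 in MICs against 123, 206 and 25.9 in non-MICs. The direction turned between pairs, with log2 differences of -0.14, -1.02 and 0.53. Pair 2 alone lay outside counting error, at a read ratio of 0.491 (exact 95% interval 0.379 to 0.633). The fitted log2 difference was -0.21 ± 0.83 (SE, n = 3 per group) with an adjusted limma p of 1.00, and its SE with the block was 0.34.

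Among the transcription factors, Nrf1 had a single direction on the deposited scale and lost it after TMM rescaling. Nrf1, the nuclear respiratory factor of cytochrome c and many other respiratory genes (ENSMUSG00000058440, chr6:30047988-30153458, plus strand), had scaled counts of 1287, 1311 and 1645 in MICs. Its counts in non-MICs were 1570, 1562 and 1649. The MIC value differed by -18.0% in pair 1, -16.0% in pair 2 and -0.262% in pair 3, so that the groups overlap through MIC 3. The log2 difference was -0.18 ± 0.20 (SE, n = 3 per group), with adjusted limma p-values of 1.00 without the block and 0.689 with it. In pair 3, the read ratio of 0.997 had an exact 95% interval of 0.942 to 1.06.

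Gabpa, the DNA-binding subunit of the factor also called NRF2, had scaled counts of 2201, 3339 and 2655 in MICs against 2696, 3149 and 2722 in non-MICs. The populations overlapped, and the pair differences were -0.29, 0.08 and -0.04 on the log2 scale. Esrra, the orphan nuclear receptor that acts with PGC-1 coactivators, had scaled counts of 1644, 2035 and 570.0 in MICs against 1482, 2026 and 598 in non-MICs. MICs and non-MICs of the same pair were nearly level for Esrra, with log2 differences of 0.15, 0.01 and -0.07, whereas pair 3 stood far below the others in both populations. The fitted differences were -0.08 ± 0.22 for Gabpa and 0.03 ± 0.59 for Esrra (log2, SE, n = 3 per group), and the SE of Esrra fell to 0.17 with the block.

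**Figure D2:**
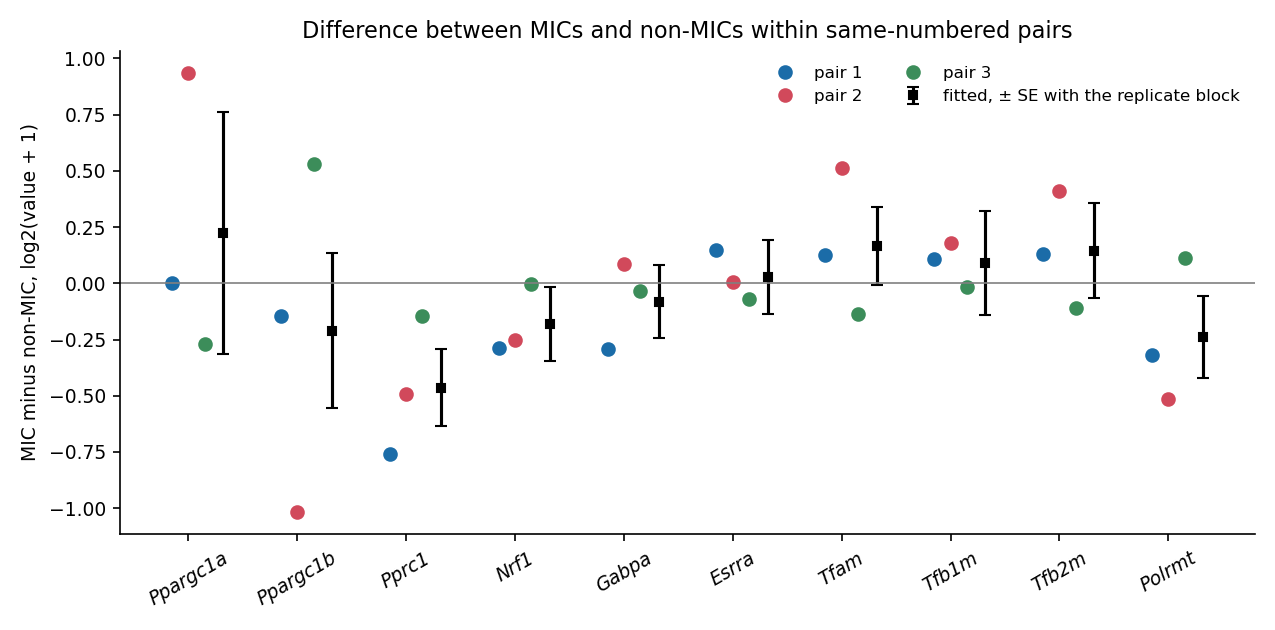
Difference between MICs and non-MICs in log2(value + 1) for each regulator, by pair (colored points), with the fitted difference and its SE from the fit with the block (black squares). Pprc1, at -0.76, -0.49 and -0.14, is the 1 regulator whose 3 pairs all lie visibly under 0, while Ppargc1b runs from -1.02 to 0.53.

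The mitochondrial transcription apparatus followed no common direction either. Tfam, which packages mitochondrial DNA and bends its promoters (ENSMUSG00000003923, chr10:71225464-71238280, minus strand), had scaled counts of 1709, 1980 and 1730 in MICs. Its counts in non-MICs were 1569, 1389 and 1903. Pair 1 was higher in MICs by 8.96% and pair 2 by 42.5%, while pair 3 stood at -9.09%, and the groups overlapped through non-MIC 3. The log2 difference was 0.17 ± 0.21 (SE, n = 3 per group) with adjusted limma p-values of 1.00 without the block and 0.741 with it. Counting error does not cover the turn between pairs, since the exact 95% intervals of the read ratio were 1.33 to 1.53 in pair 2 and 0.861 to 0.960 in pair 3.

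Polrmt, the polymerase itself (ENSMUSG00000020329, chr10:79736123-79746581, minus strand), had scaled counts of 917, 1171 and 612 in MICs against 1143, 1671 and 566 in non-MICs. It was lower in MICs in pairs 1 and 2, by log2 differences of -0.32 and -0.51, and higher by 0.11 in pair 3. Tfb2m, which opens the promoter with Polrmt, had scaled counts of 313, 526 and 255 in MICs against 286, 395 and 275 in non-MICs. Its pair differences of 0.13, 0.41 and -0.11 had the opposite sign to those of Polrmt in each pair, and both genes overlapped between populations. The fitted log2 differences were -0.24 ± 0.43 for Polrmt and 0.14 ± 0.36 for Tfb2m (SE, n = 3 per group), with adjusted limma p-values with the block of 0.631 and 0.823.

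Tfb1m, an rRNA methyltransferase of the mitochondrial small ribosomal subunit, was the most even of the 10. In reads per kilobase of exon scaled to library size (RPKM), it stood at 1.71, 1.62 and 1.67 in MICs 1 to 3 and at 1.58, 1.43 and 1.69 in non-MICs, and the populations overlapped. The log2 difference was 0.09 ± 0.30 (SE, n = 3 per group), and each pair's ratio of reads was within counting error of 1, at 1.08, 1.13 and 0.990.

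The spread between pairs exceeded the difference between populations for several regulators. The mean of a pair ranged over 1.80 log2 units for Esrra, 2.17 for Ppargc1b, 1.25 for Polrmt and 0.78 for Tfb2m, whereas their fitted MIC differences were between -0.24 and 0.14. In each of these 4 genes pair 3 was the lowest in both populations, and it lay under the mean of the other pairs by -1.61 for Esrra, -2.02 for Ppargc1b, -1.02 for Polrmt and -0.48 for Tfb2m. Pprc1, Nrf1, Gabpa, Tfam and Tfb1m varied by at most 0.41 between pair means. Ppargc1a had the widest range, 4.18, set by the 0 reads of pair 1, and its pair 3 lay above the mean of the other pairs by 2.18. In the GC-richest of 4 equal classes of expressed coding genes, the median of pair 3 was -0.36 relative to the other pairs. That class holds Ppargc1b and Polrmt, but also Pprc1, whose pair 3 lay above the others by 0.11. Esrra belongs to class 3 by rising GC content, with a median of 0.01. The GC-poorest class, which holds Tfb2m, Tfb1m, Gabpa and Ppargc1a, had a median of 0.09. Pair 3 was also the most deeply sequenced, and the part of depth, culture or library preparation in these levels was not tested.

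Compared per length, the coactivator Pprc1 and the factor Gabpa were the most abundant regulators, and the other coactivators were the scarcest. In RPKM, a level averaged over 6 libraries, Pprc1 stood at 14.8, Gabpa at 14.0, Tfam at 11.03 and Esrra at 9.07. In MICs alone Gabpa had a higher mean than Pprc1, at 13.7 against 12.5. In non-MICs Pprc1 had the higher mean, at 17.0 against 14.3. Polrmt followed at 6.18, Nrf1 at 4.18 and Tfb2m at 3.48. Tfb1m stood at 1.62, Ppargc1b at 0.722 and Ppargc1a at 0.0478, the last at percentile 17.8 of all genes and Pprc1 at percentile 84.3. Neighbors in this order overlapped across libraries except at 2 steps, from Tfb2m (lowest 2.60) down to Tfb1m (highest 1.71) and from Ppargc1b (lowest 0.186) down to Ppargc1a (highest 0.0916). Dividing by the longest transcript instead exchanged Tfam with Esrra and Polrmt with Nrf1.

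**Figure D3:**
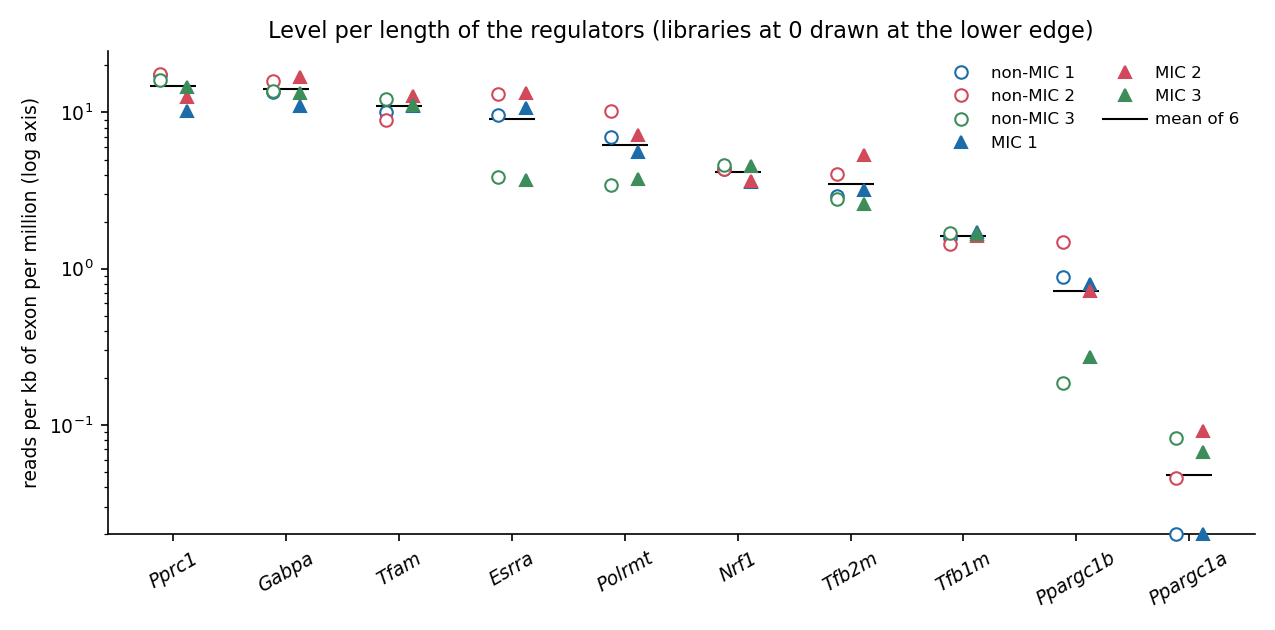
Level of each regulator in RPKM (log axis), with circles for non-MICs, triangles for MICs, colors for pairs and a bar at the mean of 6 libraries. Levels fall from 14.8 for Pprc1 to 0.0478 for Ppargc1a, whose pair 1 libraries had 0 reads and are drawn at the lower edge.

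Several regulators share ground with a neighbor on the opposite strand, which matters because the counting is not stated to have used strand. Gabpa overlaps Atp5j, a subunit of ATP synthase, by 701 bp. Atp5j had a log2 difference of 0.42, with pairs at 0.51, 0.70 and 0.05, while Gabpa had none in a single direction. Pprc1 overlaps Ldb1, a LIM domain-binding cofactor, by 329 bp, and Ldb1 was lower in MICs in each pair, at -0.49, -0.0044 and -0.38 (adjusted limma p of 0.513 with the block). Esrra overlaps Trmt112 by 73 bp, with Trmt112 at -0.16. Tfb1m overlaps Tiam2, at -0.12, by 12089 bp of gene body, the longest of these overlaps. Tiam2 had 854 to 2041 reads in a library and Tfb1m 171 to 312, and the part of Tiam2 in the Tfb1m count was not tested. Tfb1m also overlaps Cldn20, with at most 20 reads in a library. The start of Tfb2m lies 103 bp from that of Cnst, at -0.24, and the start of Tfb1m 43 bp from that of 1700102H20Rik, with at most 10 reads.

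Base composition and transcript length moved with the difference between MICs and non-MICs in pairs 1 and 2. Over 10861 expressed coding genes, the median log2 difference fell from 0.36 in the class of lowest GC content to -0.36 in the class of highest GC content in pair 2. It fell from 0.06 to -0.26 in pair 1 and was nearly flat in pair 3, at -0.05 to -0.07. By transcript length it fell from 0.22 in the shortest to -0.40 in the longest class in pair 1. In pair 2 only the shortest class stood apart, at 0.05 against -0.07 to -0.08 in the others. Pair 3 was nearly flat by length, at -0.04 to -0.07. Pprc1, Ppargc1b and Polrmt, with GC contents of 55.9%, 57.8% and 60.5%, belong to the GC-richest class, and Tfb1m, Tfb2m, Gabpa and Ppargc1a, between 41.4% and 42.6%, to the poorest.

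When the trend with GC content was removed from each library, in an alternative added after the data had been seen, the log2 difference of Pprc1 went from -0.47 to -0.27, and with length removed as well it was -0.11. Pprc1 stayed lower in each pair under these corrections, by -0.24, -0.05 and -0.03 after both, but its MIC and non-MIC libraries then overlapped, and its adjusted limma p with the block was 0.775. Polrmt turned from -0.24 to 0.04 after the GC correction and to 0.17 after both, when it was higher in MICs in all 3 pairs. Nrf1, of middle GC content at 45.4%, was -0.20 after the GC correction and Tfam, at 44.9%, was 0.13. No regulator had an adjusted p-value under 0.05 after any of these corrections.

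**Figure D4:**
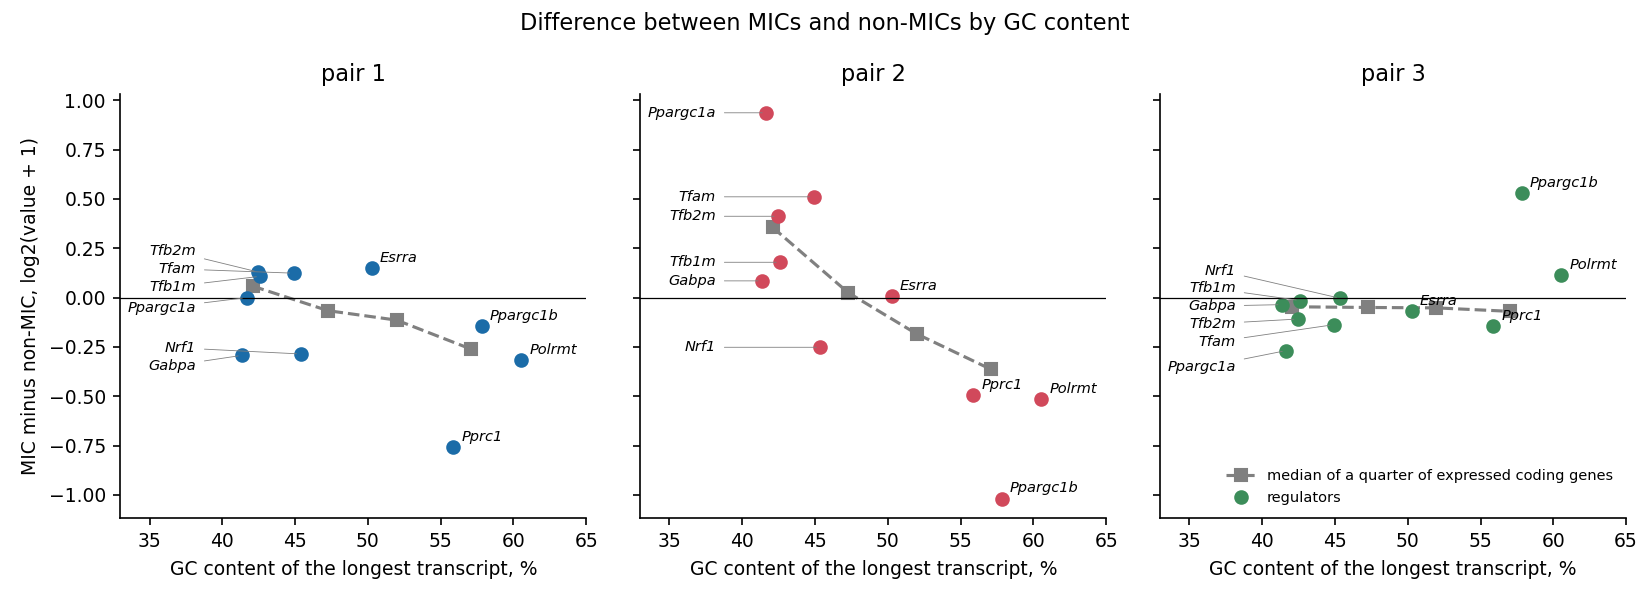
Difference between MICs and non-MICs in log2(value + 1) against the GC content of the longest transcript (%), in 1 panel per pair, for the regulators (colored points) and for the medians of 4 classes of expressed coding genes (grey squares). In pair 2 the class medians descend from 0.36 to -0.36. Pprc1, Polrmt and Ppargc1b, the lowest at -1.02, lie below the GC-rich end, while in pair 3 the classes are level.

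The wider pathway was described through companion lists, of which no gene passed limma with or without the block. These lists were chosen with earlier results of these data known, so their shares beside those of all genes are descriptive and test nothing. Of 20 partners and upstream regulators of the factors, 16 had a log2 difference below 0, against 12081 of all 22310 genes. Their median was -0.28 against -0.04 over all genes, with pair medians of -0.54, -0.04 and -0.13. With the block, 4 had an unadjusted limma p under 0.05 in the lower direction, against 5.97% of all genes. They were Hcfc1, Ppard, Pparg and Kat2a, and 0 passed in the higher direction, against 5.24%. Pparg rested on few reads, 4, 27 and 26 in MICs 1 to 3 against 17, 58 and 29 in non-MICs. Ppara and Esrrb, below 0, and Perm1, above 0, had at most 12 reads in a library. Kat2a, the acetyltransferase GCN5 that acetylates PGC-1 coactivators, had scaled counts of 1718, 2731 and 3142 in MICs against 3035, 4117 and 3647 in non-MICs. Each pair was lower in MICs, by log2 differences of -0.82, -0.59 and -0.21, although the groups overlapped and the adjusted limma p with the block was 0.417. Ppard, a fatty acid-sensing nuclear receptor, differed by -0.75, -0.67 and -0.09, with an adjusted limma p of 0.418 with the block. After the correction for GC content and length the list's median was -0.11.

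Of 14 genes of mitochondrial DNA replication and upkeep, 11 were below 0, with a median of -0.22, and 7 were lower in MICs in all 3 pairs, against 18.8% of all genes. Dna2, a nuclease and helicase that works in mitochondria and nucleus, was the 1 companion gene that passed any test. Its adjusted p was 0.030 in edgeR with the block, which called 1.41% of all genes, and 0.297 in limma with the block. Its scaled counts were 419, 289 and 586 in MICs against 755, 581 and 784 in non-MICs. Each pair was lower in MICs, and the groups overlapped only through MIC 3, which exceeded non-MIC 2. Lonp1, the matrix protease that degrades Tfam, differed by log2 values of -0.53, -0.58 and -0.11 in the 3 pairs (adjusted limma p with the block of 0.423). The list's median after both corrections was -0.06.

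Of 23 genes that elongate, cut or stabilize mitochondrial RNA, 13 were above and 10 below 0, with a median of 0.07. With the block, 2 had an unadjusted limma p under 0.05 in the higher direction, Slirp and Fastkd2, against 5.24% of all genes, and 2 in the lower, Elac2 and Fastk, against 5.97%. These shares are near those over all genes. Fastkd2, a mitochondrial RNA-binding protein, had scaled counts of 2173, 2549 and 2149 in MICs against 1473, 1262 and 2117 in non-MICs. Pairs 1 and 2 differed by 0.56 and 1.01 on the log2 scale and pair 3 by 0.02. Slirp, which stabilizes mitochondrial mRNAs with Lrpprc, differed by 0.57, 1.04 and -0.04, and the adjusted limma p-values with the block were 0.418 for Fastkd2 and 0.419 for Slirp.

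Nuclear genes that Nrf1 and Gabpa are known to regulate were mostly above 0 in pairs 1 and 2 and evenly split in pair 3. Of 12 genes for cytochrome c, cytochrome c oxidase subunits and the import receptor Tomm20, 10 had a fitted log2 difference above 0, with a median of 0.38. The pair medians were 0.48, 0.63 and -0.02, with 12, 9 and 6 of the 12 higher in MICs. With the block, 5 had an unadjusted limma p under 0.05 in the higher direction, against 5.24% of all genes, and 0 in the lower, against 5.97%. Since the list was chosen with earlier results known, this share is descriptive. Cox7a2, a subunit of cytochrome c oxidase, had scaled counts of 7456, 9733 and 5170 in MICs against 4750, 4638 and 5163 in non-MICs. It was higher in pairs 1 and 2 by 0.65 and 1.07 and level in pair 3, with an adjusted limma p of 0.418 with the block. Cox6c differed by 0.55, 1.00 and -0.09. These genes are short, with a median transcript of 815 bases, and their median log2 difference was 0.14 after the length correction and 0.04 after the correction for both.

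The mitochondrial mRNAs themselves differed in sign between pairs. Of the 13 listed, 7 were in the table. All 7 were lower in MICs in pairs 1 and 3 and all 7 higher in pair 2, with medians of -1.23, 0.94 and -0.44. The median of their fitted log2 differences was -0.28. It was -0.48 after the length correction and -0.90 after the correction for GC content and length. mt-Nd4, a core subunit of complex I, had scaled counts of 13593, 52824 and 35484 in MICs against 34284, 32568 and 48210 in non-MICs. mt-Nd6, which is transcribed from the light strand, turned in the same way, at -0.85, 0.42 and -0.42. Tfam had the opposite sign to these mRNAs in pair 1, and Polrmt had it in pairs 2 and 3.

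**Figure D5:**
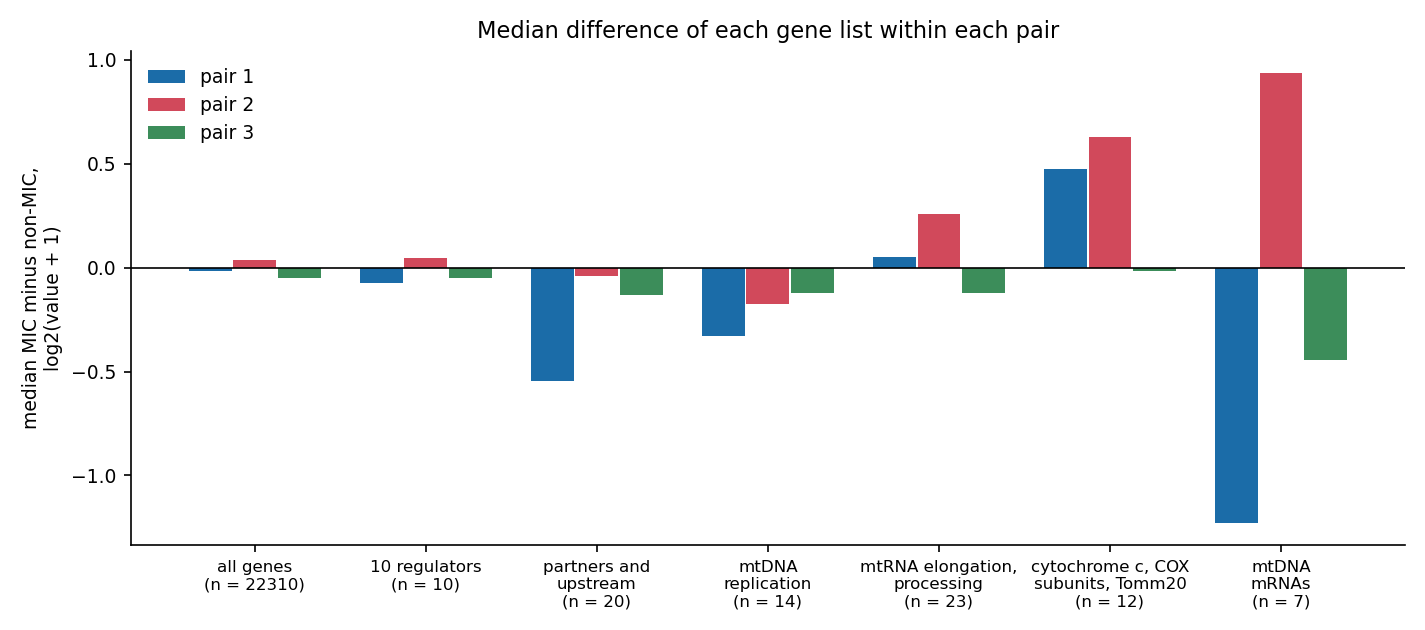
Median difference between MICs and non-MICs in log2(value + 1) of each gene list within each pair, with the number of genes under each label. The medians of the 10 regulators lie between -0.07 and 0.05, near the median of all genes, whereas the cytochrome c list reaches 0.63 in pair 2 and the mitochondrial mRNAs run from -1.23 to 0.94.

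The genes whose profile over the 6 libraries was nearest to that of Tfam, by root mean square distance of centered log2 values among 12764 genes, were Arl14ep at 0.035, Rpl14 at 0.045 and St5 at 0.052. Rpl14 encodes a ribosomal protein with processed copies in the genome, so its count is uncertain. Since Ppargc1a had under 10 reads in some libraries, Ppargc1b was used for the coactivators, and its nearest genes were Adcy5 at 0.19, Map1s at 0.20 and Ccdc124 at 0.23. Map1s and Ccdc124 shared the low values of pair 3, with scaled counts of 373 and 563 in MIC 3 against 1377 and 2227 in MIC 2. These distances describe 6 libraries.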

How the data were processed

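The authors sorted PyMT tumor cells after plating, made stranded mRNA libraries, aligned and counted reads per gene and scaled each library to a common total, so the deposited signal is scaled counts. The submitters' processing notes name STAR, HTSeq and mm10/GRCm38, while the methods name Bowtie2, and versions are not given in the sources used here. Every listed gene is above 0 in at least 3 of 6 libraries, and no further filter was used. Dividing by the value of 1 read gave whole reads, within 0.01, for 99.97% to 100.0% of a library's values.

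limma 3.58.1 (lmFit, eBayes with trend) in R 4.3.3 was fitted to log2(value + 1) of all 22310 genes, without a block as in the study's unpaired ranking. The pairing comes from replicate numbers shared in the labels and from the values: departures from group means correlated at 0.573, 0.668 and 0.746 for same-numbered libraries and between -0.19 and -0.54 for others. edgeR 4.0.16 and DESeq2 1.42.0 were run on recovered reads. Fits were tested on simulated data. GENCODE vM21 (GRCm38) held 22161 of 22310 identifiers. Alternatives were other pseudocounts (0.1, 10), only genes above the median level, quantile and TMM scaling, no trend, leaving out libraries and pairs, and, added after seeing the data, lowess corrections for GC content and transcript length. Read-ratio intervals are Clopper-Pearson.

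Members and companion lists were chosen with earlier results of these data known. Named companion genes were those passing any test or, in a list where fewer than 2 passed, the 2 with the smallest limma p with the block. Neighbors with values in the data were named where they overlap a member or start within 1 kb on the other strand. Gm42613, Gm25301, Gm25580 and Gm15480, which overlap Ppargc1a, Ppargc1b, Nrf1 and Tfb2m in that order, had no values. Hcfc1, Pparg, Elac2 and Fastk were named after their values were seen.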

Additional observations from a re-analysis of the deposited data

How the results depend on the processing

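No regulator was called under any alternative, and Pprc1 and Nrf1 kept a negative difference in all 28 alternatives each. The lowest adjusted p of Pprc1 over the settings that kept all libraries was 0.286. The replicate block changed no call on a member. It moved the calls over all genes from 0 to 29 in limma, 12 after quantile normalization, 32 after TMM rescaling, 59 after the length correction, 102 after the GC correction and 56 after both, to 315 in edgeR and to 133 in DESeq2, which gave 1 without the block. At an unadjusted p under 0.05, limma without the block placed 322 genes and edgeR without it 295. With a pair left out and the block kept, calls over all genes were 11 without pair 1, 59 without pair 2 and 0 without pair 3, against 29 with all. Companion genes called numbered 1 in edgeR with the block and 0 otherwise.

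Leaving out 1 library or pair moved the log2 difference between -0.63 and -0.32 for Pprc1, -0.29 and -0.12 for Nrf1, -0.48 and 0.59 for Esrra (-0.031 without pair 1), -0.24 and 0.064 for Gabpa (0.025 without pair 1), -0.67 and 0.11 for Polrmt, -1.09 and 1.64 for Ppargc1a, -1.07 and 0.40 for Ppargc1b (0.19 without pair 2), -0.0068 and 0.32 for Tfam, 0.03 and 0.15 for Tfb1m and -0.15 and 0.37 for Tfb2m. The GC correction reversed Ppargc1b to 0.023, Polrmt to 0.037 and Tfb1m to -0.0062, and the correction for GC and length reversed Ppargc1b to 0.12, Polrmt to 0.17, Tfb1m to -0.13 and Tfb2m to -0.075. The length correction reversed Gabpa to 0.045.

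Regulators higher in all 3 pairs numbered 1 after TMM rescaling, 3 after quantile normalization, 2 after the length correction and 1 after the correction for GC and length. Those lower in all 3 numbered 1 after TMM, quantile, length or GC correction. With the longest transcript as length, 6 of 10 regulators kept their rank. The causes were not tested. Depth limits Ppargc1a, and a difference as small as that of Tfb1m lies within counting error.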
